A study of Mus musculus with 99 samples.

Results

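The simple epithelial keratins described here are 5 genes, Krt7, Krt8, Krt18, Krt19 and Krt80, of 55341 gene names in the count table. They were selected on measured values of these data: earlier results of the same RNA-seq libraries were known when they were named, and all 5 were past the threshold for a change with OHT in the Parental line. Their RNA values in the RING1A-/- RING1B fl/fl (Parental) line and its RING1B WT and RING1B I53S derivatives are therefore given as a description, with standard errors and without p-values. The threshold in the Parental line used neither the ChIP-seq peaks nor the Eed fl/fl RNA-seq libraries. Whether their values were also known when the genes were named cannot be told, so both are a description too.

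The cells were mouse embryonic stem cells (ESCs) of 129P2/Ola origin, with a tamoxifen-inducible Cre (creERT2) at ROSA26. The Parental line was RING1A-/- and RING1B fl/fl, so that by design 4-hydroxytamoxifen (OHT) left it with neither RING1 protein. The RING1B WT and RING1B I53S lines were single selected clones of the same RING1A-/- RING1B fl/fl line, each with a tagged transgene under a CAG promoter that encoded either the intact protein or a mutant without its ubiquitin ligase activity. RNA-seq covered each line after 72 h with OHT (+OHT) or ethanol (-OHT), with 2 libraries per group, plus 4 libraries of Eed fl/fl creERT2 ESCs with and without OHT. Eed encodes a core subunit of PRC2. ChIP-seq peak lists of 70 libraries came from the same 3 lines and from derivatives that lacked MTF2 (MTF2 KO). The labels do not say whether replicates were separate cultures, so standard errors and p-values measure the spread between these libraries, which may be technical.

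Keratins build the intermediate filaments of epithelial cells, and a filament needs a type II keratin paired with a type I keratin. Krt8 (type II) and Krt18 (type I) are the pair that appears earliest in the embryo, in trophectoderm, and they form the filaments of single-layered epithelia such as gut and liver. Krt7 (type II) and Krt19 (type I) join them in ducts and in trophoblast, and Krt80 is a type II keratin of many epithelia that lies near desmosomes. Polycomb complexes hold developmental genes silent in ESCs: PRC1, through RING1A or RING1B, ubiquitinates histone H2A (H2AK119ub1), and PRC2 methylates histone H3 (H3K27me3).

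Of the 5 genes, 4 lie in the type II keratin cluster of chromosome 15 and its flank, in GRCm38 (mm10) coordinates. Krt80 spans chr15:101347444-101370162 on the minus strand and Krt7 spans chr15:101411043-101430313 on the plus strand, with 40.9 kb between them. Krt8 lies 566.4 kb further on, at chr15:101996698-102004482 on the minus strand. Krt18, the type I partner of Krt8, spans chr15:102028180-102032027 on the plus strand, so that the pair is divergent across 23.7 kb. Krt19 lies in the type I cluster, at chr11:100140810-100148665 on the minus strand. Transcription starts are those of the principal GENCODE transcript, which for Krt7 and Krt19 lies inside the annotated span.

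Some of the peaks described further on overlap the sequences shown here, and others lie beside them. The sequences are RefSeq promoters of matched members (3 of 5) and the centre of the RING1B peak upstream of Krt18 in Parental -OHT cells. They are from GRCm38.p6, read 5′ to 3′ along the gene's strand, and capitals mark CpG dinucleotides. The Krt7 stretch is chr15:101412153-101412401 (plus strand), the Krt8 stretch chr15:102004483-102004592 (minus strand), the Krt18 stretch chr15:102027966-102028179 (plus strand) and the RING1B window chr15:102025364-102025663 (plus strand). Each promoter stretch ends at the base before the GENCODE start. The RefSeq start lies further into the gene, by 140 bases for Krt8, 36 for Krt18 and 1 for Krt7.
Krt7 promoter: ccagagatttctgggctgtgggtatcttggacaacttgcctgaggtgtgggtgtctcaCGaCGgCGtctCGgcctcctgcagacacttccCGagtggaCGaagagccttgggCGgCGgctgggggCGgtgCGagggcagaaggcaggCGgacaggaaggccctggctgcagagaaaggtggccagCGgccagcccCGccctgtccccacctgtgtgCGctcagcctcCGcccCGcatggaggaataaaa
Krt8 promoter: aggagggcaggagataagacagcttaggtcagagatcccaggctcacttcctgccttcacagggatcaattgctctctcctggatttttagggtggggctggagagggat
Krt18 promoter: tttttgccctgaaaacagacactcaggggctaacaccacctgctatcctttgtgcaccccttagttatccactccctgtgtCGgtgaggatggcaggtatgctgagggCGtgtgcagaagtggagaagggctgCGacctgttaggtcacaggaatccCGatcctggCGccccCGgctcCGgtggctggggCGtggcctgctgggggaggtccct
Krt18 upstream RING1B peak: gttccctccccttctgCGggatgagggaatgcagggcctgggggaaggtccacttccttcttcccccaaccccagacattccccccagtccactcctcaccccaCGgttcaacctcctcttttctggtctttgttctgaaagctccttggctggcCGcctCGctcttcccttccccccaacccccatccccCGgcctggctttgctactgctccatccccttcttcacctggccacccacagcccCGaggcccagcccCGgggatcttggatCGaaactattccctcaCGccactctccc

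CpG density separated the 3 promoters. In the 250 bases before the RefSeq start, which for Krt8 and Krt18 run past the GENCODE start and the letters shown, Krt7 held 16 CpGs and Krt18 held 12, against a median of 6 over 32851 mouse promoters, and Krt8 held 3. The shown stretches held 16 CpGs for Krt7, 8 for Krt18 and 0 for Krt8. The GC contents of the 250 bases were 66.0%, 60.4% and 58.0% in the order Krt7, Krt18, Krt8, against a median of 52.4%. The RING1B window upstream of Krt18 held 9 CpGs, below the median of 22 over the centres of 5073 RING1B peaks of that library, of which 10.6% held fewer. Its GC content was 62.7% against a median of 64.3%.

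Motif letters were searched on both strands of the same 250 bases. The Krt7 promoter held 4 matches to the Sp1 letters GGGCGG, which 32.7% of all 250-base promoters hold, and 2 to the AP-2 letters GCCNNNGGC (13.7% of promoters). The Krt8 promoter held a match to the GATA letters AGATAA (9.99% of promoters) and the Krt18 promoter 1 to the AP-2 letters and 1 to the E2F letters GCGGGA (16.9% of promoters), the last of them beyond the shown stretch. The RING1B window held 2 matches to the TEAD letters GGAATG, present in 9.54% of RING1B peak centres, and 1 to the E2F letters (35.5%). A match is a description of the letters only.

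Sequencing gave between 6957248 and 12743460 counts on genes per RNA-seq library. Levels are CPM, a library's counts scaled to a common total with TMM factors. All 5 keratins passed the filter on low counts, Krt80 only through the +OHT groups: its raw counts were 0 to 6 in the 6 -OHT libraries and 7 to 21 in the 6 +OHT libraries of the 3 lines. Counting ignored strand, and the antisense or overlapping genes Gm671 (over Krt7), Gm36026 (over Krt8) and Gm35853 (over Krt80) share exon bases with members. Gm671 had 0 to 5 counts and Gm36026 0 to 3 in the 12 libraries, while Gm35853 had 0 to 16, the size of Krt80 itself.

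The targeted genes were checked first. Rnf2, which encodes RING1B, stood at 228 ± 41.6 CPM (SD, n = 2) in Parental -OHT and 155 ± 16.1 in +OHT, over all its exons, so that this value does not measure the deletion itself and in the other lines it includes the transgene. Ring1, which encodes RING1A, was at 1.29 to 3.88 CPM in the 3 RING1A-/- lines and at 5.93 to 6.54 in Eed fl/fl cells. Eed stood at 214 ± 58.3 CPM without and 55.4 ± 16.5 with OHT in Eed fl/fl cells (log2 fold change -1.95, adjusted p = 0.0766, edgeR quasi-likelihood test).

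In Parental cells, RNA of all 5 keratins was higher after loss of both RING1 proteins. Krt18, the type I partner of Krt8, was at 36.3 and 31.2 CPM in the -OHT libraries and at 160 and 179 in the +OHT libraries, a log2 fold change of 2.33 ± 0.22 (SE). Krt8 went from 39.4 and 35.7 CPM to 108 and 111 (log2 fold change 1.55 ± 0.21). For both genes, each +OHT library lay above both -OHT libraries.

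Krt19, the smallest type I keratin, was at 17.5 and 31.3 CPM without OHT and at 120 and 141 with it (log2 fold change 2.43 ± 0.35). Krt7 was at 10.5 and 13.2 CPM without OHT and at 62.0 and 58.3 with it (2.35 ± 0.24). Krt80 stayed near the detection limit: 3 counts in each -OHT library, and 15 and 21 counts in the +OHT libraries (log2 fold change 2.43 ± 0.78). The groups did not overlap for any of the 5, which were chosen on this change. For this and the other lines, the share of all genes whose libraries separate in this way was not computed. Separation is thus a description only.

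All 5 members passed a log2 fold change of at least 1.5 at a false discovery rate (FDR) under 0.05 in the Parental comparison, where 15.1% of 18154 tested genes were called higher and 1.83% lower. This count restates the choice of the members. Without any 1 of the 4 Parental libraries, Krt80 was no longer called, and without Parental -OHT replicate 2 Krt8 also fell under the fold threshold (log2 fold change 1.44).

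**Figure D1:**
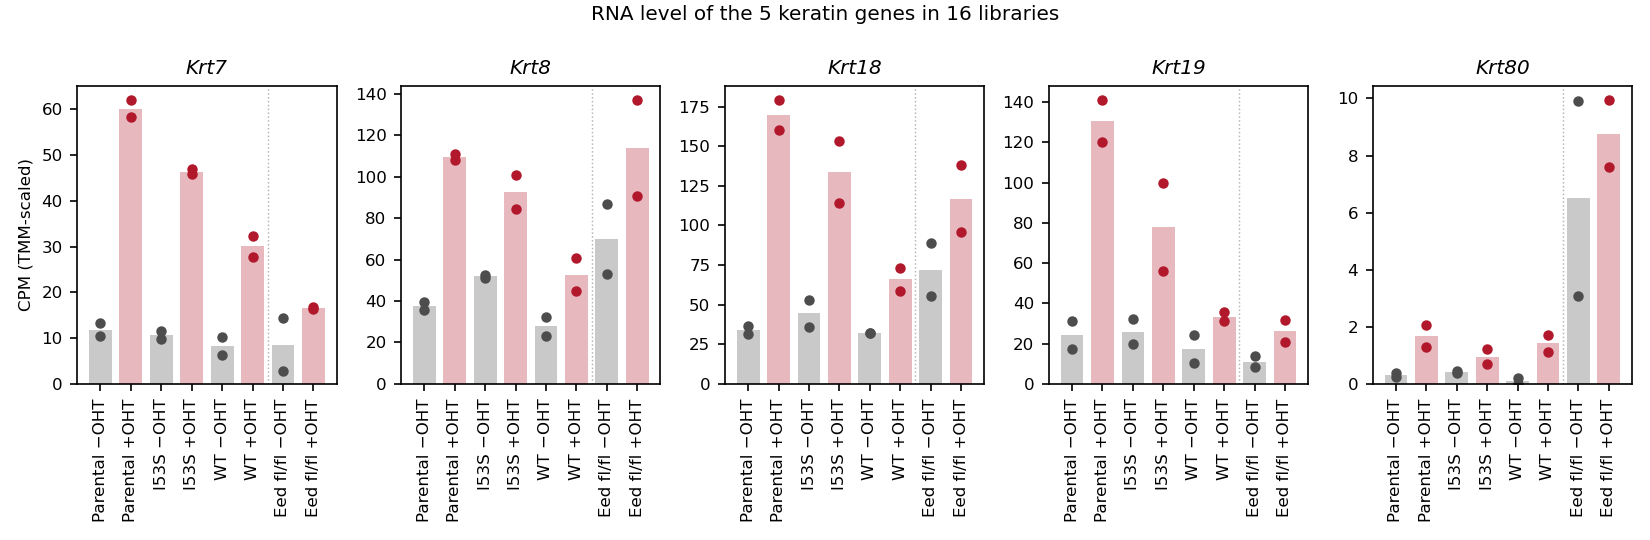
RNA level of each keratin in CPM (vertical axes, linear from 0, one panel per gene) in the 8 groups of RNA-seq libraries. Bars are group means and points the 2 replicate libraries; in the Parental line every +OHT point lies above every -OHT point for all 5 genes.

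Per kilobase of exon, Krt18 was the most abundant of the 5 in Parental +OHT cells, at 118 ± 9.72 CPM per kb (SD, n = 2), followed by Krt19 at 70.1 ± 7.98, Krt8 at 56.1 ± 1.10, Krt7 at 8.53 ± 0.37 and Krt80 at 0.26 ± 0.08. Without OHT, the order of the levels was Krt18 (23.5 ± 2.51 CPM per kb), Krt8 (19.2 ± 1.34), Krt19 (13.2 ± 5.24), Krt7 (1.68 ± 0.27) and Krt80 (0.0481 ± 0.014). Krt8 stood above Krt19 before and below it after OHT in the means, with a gap before OHT close to the spread of Krt19. The type II to type I balance of the Krt8 and Krt18 pair was taken as a ratio.

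The Krt8 to Krt18 ratio, in counts per kb of exon, was 0.798 and 0.842 in the Parental -OHT libraries and 0.499 and 0.456 in the +OHT libraries. RING1B I53S cells gave 0.726 and 1.04 without and 0.543 and 0.483 with OHT. RING1B WT cells gave 0.736 and 0.535 without and 0.561 and 0.607 with OHT, and those groups overlapped. Eed fl/fl cells lay at 0.721 and 0.699 without and at 0.729 and 0.694 with OHT. Less type II per type I message was thus seen with OHT in the Parental and RING1B I53S libraries, and the overlapping groups were RING1B WT and Eed fl/fl.

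RING1B I53S cells keep a RING1B protein without ligase activity after OHT. Their Krt18 level went from 53 and 36.1 CPM to 114 and 153 (log2 fold change 1.58 ± 0.22), and Krt7 from 11.5 and 9.88 to 45.8 and 46.9 (2.11 ± 0.24). Krt19 went from 32.2 and 19.8 CPM to 56.3 and 100 (1.59 ± 0.34). Krt8 went from 52.5 and 51.3 CPM to 84.5 and 101, at 0.83 ± 0.20 the smallest change of the 5 in this line. All 4 sets of libraries were separate.

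In this line Krt80 had 6 and 4 counts in the -OHT libraries and 7 and 14 in the +OHT libraries. In all, 3 members (Krt7, Krt18 and Krt19) passed the threshold, where 12.8% of all tested genes were called higher. Krt18 and Krt19 were no longer called without I53S -OHT replicate 2 or without I53S +OHT replicate 2, which left 1 member called.

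RING1B WT cells, in which the transgene supplies an active protein, had smaller values after OHT. Krt18 went from 32.2 and 31.9 CPM to 58.9 and 73.4 (log2 fold change 1.04 ± 0.22), Krt8 from 32.3 and 23.3 to 45 and 60.6 (0.92 ± 0.21) and Krt19 from 24.2 and 10.2 to 31.2 and 35.7 (0.96 ± 0.35). The +OHT libraries of these genes also lay above the -OHT libraries. Krt7 went from 10.2 and 6.36 CPM to 27.8 and 32.4 (1.86 ± 0.25) and was the member called, where 1.34% of genes were called higher.

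Krt80 had 2 and 0 counts in the -OHT and 17 and 9 in the +OHT libraries of RING1B WT cells, so its fold there has no firm base. Without WT -OHT replicate 1, Krt19 was called as well (log2 fold change 1.71). The keratin level thus differed between -OHT and +OHT in the RING1B WT line too, by less than in Parental cells for Krt7, Krt8, Krt18 and Krt19.

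**Figure D2:**
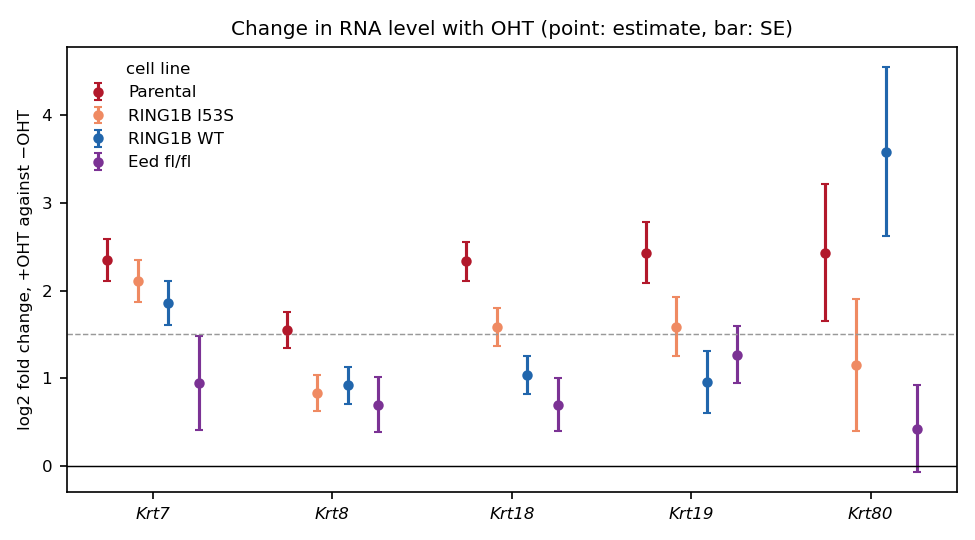
Change of each keratin with OHT, as log2 fold change of +OHT over -OHT (vertical axis), in the Parental, RING1B I53S, RING1B WT and Eed fl/fl lines. Points are fitted values, bars 1 standard error and the dashed line the threshold of 1.5; Krt18 falls from 2.33 in Parental to 1.04 in RING1B WT cells.

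Among the +OHT libraries, the intact transgene went with lower keratin RNA than no RING1B. RING1B WT cells differed from Parental cells by a log2 fold change of -1.96 ± 0.34 for Krt19, -1.36 ± 0.22 for Krt18, -1.06 ± 0.21 for Krt8 and -1.0 ± 0.23 for Krt7. No RING1B WT +OHT library reached a Parental +OHT library for these 4 genes. Krt80 differed by -0.21 ± 0.65. Of the members, Krt19 was called lower, where 7.62% of genes were called lower, and without WT +OHT replicate 2 Krt18 was called too (-1.52).

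RING1B I53S means lay between those lines for Krt7, Krt8, Krt18 and Krt19. Against RING1B WT, both with OHT, it was higher by 1.23 ± 0.34 (log2) for Krt19, 1.02 ± 0.21 for Krt18, 0.81 ± 0.21 for Krt8 and 0.63 ± 0.23 for Krt7, with none past the fold threshold (6.02% of genes were called higher). Without I53S +OHT replicate 1, Krt19 was called (1.59). Against Parental, both with OHT, the differences were -0.73 ± 0.33 for Krt19, -0.37 ± 0.22 for Krt7, -0.34 ± 0.21 for Krt18 and -0.25 ± 0.20 for Krt8. Krt80, at few counts, was lower in RING1B I53S than in both, by log2 fold changes of -0.56 ± 0.68 against RING1B WT and -0.78 ± 0.66 against Parental. No member was called against Parental, and 0.160% of all genes were.

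Without OHT, RING1B WT differed from Parental by log2 fold changes of -0.51 for Krt7, -0.49 for Krt19, -0.44 for Krt8 and -0.07 for Krt18, and RING1B I53S from Parental by -0.14, 0.11, 0.46 and 0.40 in the same order. Krt80, with 0 to 6 counts, gave -1.37 ± 1.17 and 0.50 ± 0.89. No member was called in either comparison, where 0.0606% and 0.154% of genes were. The change with OHT was smaller in RING1B WT than in Parental cells by 1.47 ± 0.49 (log2) for Krt19, 1.28 ± 0.31 for Krt18, 0.62 ± 0.29 for Krt8 and 0.49 ± 0.34 for Krt7. For Krt80 it was larger, by 1.16 ± 1.32. No member met both parts of the threshold for that difference, and 1.54% of genes did. Without WT -OHT replicate 2, Krt19 met it (-1.93).

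The Eed fl/fl libraries were not part of the threshold that the members had passed. Earlier results of these data were known, so the p-values here are a description and not independent support. Krt18 was at 88.7 and 55.6 CPM without and 138 and 95.9 with OHT (log2 fold change 0.70 ± 0.30), and Krt8 at 87.1 and 53 without and 137 and 90.7 with OHT (0.70 ± 0.31). Each +OHT library of these genes exceeded both -OHT libraries. Krt19, at 13.6 and 8.25 CPM without and 31.6 and 21 with OHT, had the largest value of the 5 (1.27 ± 0.32).

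Krt7 was at 2.84 and 14.3 CPM without and 16.9 and 16.3 with OHT in Eed fl/fl cells, where the -OHT libraries lay further apart (2.84 and 14.3) than the higher of them and either +OHT library. Krt80 had 25 and 83 counts without and 61 and 81 with OHT, and those groups overlapped. Gm35853, which shares exon bases with Krt80, had 20 and 46 counts without and 33 and 48 with OHT there. How far their counts are separate was not tested. Of 49 other keratin genes, 0 to 1 had no counts in each Eed fl/fl library, against 11 to 32 in libraries of the 3 lines. In the edgeR quasi-likelihood test over 25170 genes the adjusted p was 0.48 for Krt19, 0.833 for Krt7, Krt8 and Krt18 and 0.895 for Krt80, and 0.00795% of genes were called higher. No member was called by edgeR or DESeq2, and the unadjusted p was under 0.05 for 3 of the 5 (0.0022 for Krt19, 0.0414 for Krt18 and 0.0456 for Krt8), as for 5.45% of all tested genes. The study's methods name clones #1 and #4 of this line, and the labels do not say whether the replicate numbers mark them. With the replicate number as a block the log2 fold changes were 1.28 for Krt19, 0.71 for Krt18 and 0.71 for Krt8, under the fold threshold, with edgeR adjusted p of 1.07e-05, 0.000111 and 0.000112. Leaving out Eed fl/fl -OHT replicate 2 brought Krt7 past the threshold (log2 fold change 2.49), and leaving out +OHT replicate 2 did so for Krt19 (1.53).

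Of the tested neighbours of the members, Krt87, Krt15 and 6030408B16Rik were called higher in Parental cells, where 15.1% of all genes were, and Eif4b was not. Without OHT, Krt87 had 1 count in each Parental library, Krt15 had 4 and 1, and 6030408B16Rik had 1 and 2. These calls thus start from the floor and are a description. Krt78 and Krt9 were not tested in the 3 lines. Krt87, a hair keratin next to Krt7, was at 0.103 CPM in Parental -OHT and at 7.1 in +OHT means, and Krt15, a basal keratin next to Krt19, was at 0.225 and 2.48. Eif4b, a translation initiation factor gene on the far side of Krt18, was at 447 and 336 CPM (log2 fold change -0.41 ± 0.16, adjusted p = 0.0553, edgeR). Pattern likeness over the 12 libraries of the 3 lines was taken as Pearson's r with the mean standardised log2 CPM of the members. The most alike genes were Cd8a (0.991) and then Selenbp1, Art3, Hspa1a and Tmprss2 (each 0.986), although the 12 points fall into 6 groups of 2.

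The ChIP-seq peaks were called per library by the authors against input, and each has a score of -log10 p with a minimum of 10. The files hold no read counts, so depth is unknown, and scores are not compared between libraries by a test. All conditions had 1 library per antibody, apart from MTF2 and JARID2 at 72 h in the RING1B WT and RING1B I53S lines, which had 2. A peak was assigned to a keratin gene when it came within 2.5 kb of it. In all, 94 of 350 gene and library pairs held a peak, and the 4 input lists held none.

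In Parental -OHT cells, 4 of the 5 keratin genes carried Polycomb peaks. Among 12 antibodies, Krt19 had a peak of 10, Krt18 of 9, Krt7 of 8, Krt8 of 4 and Krt80 of none, which made 31 of 60 pairs. In RING1B WT +OHT cells it was 26 of 60, with 9 at Krt18, 8 at Krt19, 6 at Krt7 and 3 at Krt8. In Parental +OHT cells 2 of 60 pairs had a peak, both at Krt19 (H2AK119ub1 and PCGF6). The PCGF6 peak there lay at -4.66 to -4.28 kb from the start, apart from the PCGF6 peaks of Parental -OHT cells. In RING1B I53S +OHT cells it was 1 of 60, a peak of the PRC2 subunit EPOP at Krt19 with a score of 10.8. In that library 12.6% of protein-coding genes had an EPOP peak. Shares of protein-coding genes with a peak also differed, in the order Parental -OHT, RING1B WT +OHT, Parental +OHT, RING1B I53S +OHT. They were 18.9%, 9.95%, 0.278% and 0.169% for CBX7 and 31.3%, 26.1%, 23% and 14.4% for SUZ12. For H3K27me3 they were 30.6%, 30.5%, 25.6% and 24.1%. The drop in pairs is not read as particular to the keratins.

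**Figure D3:**
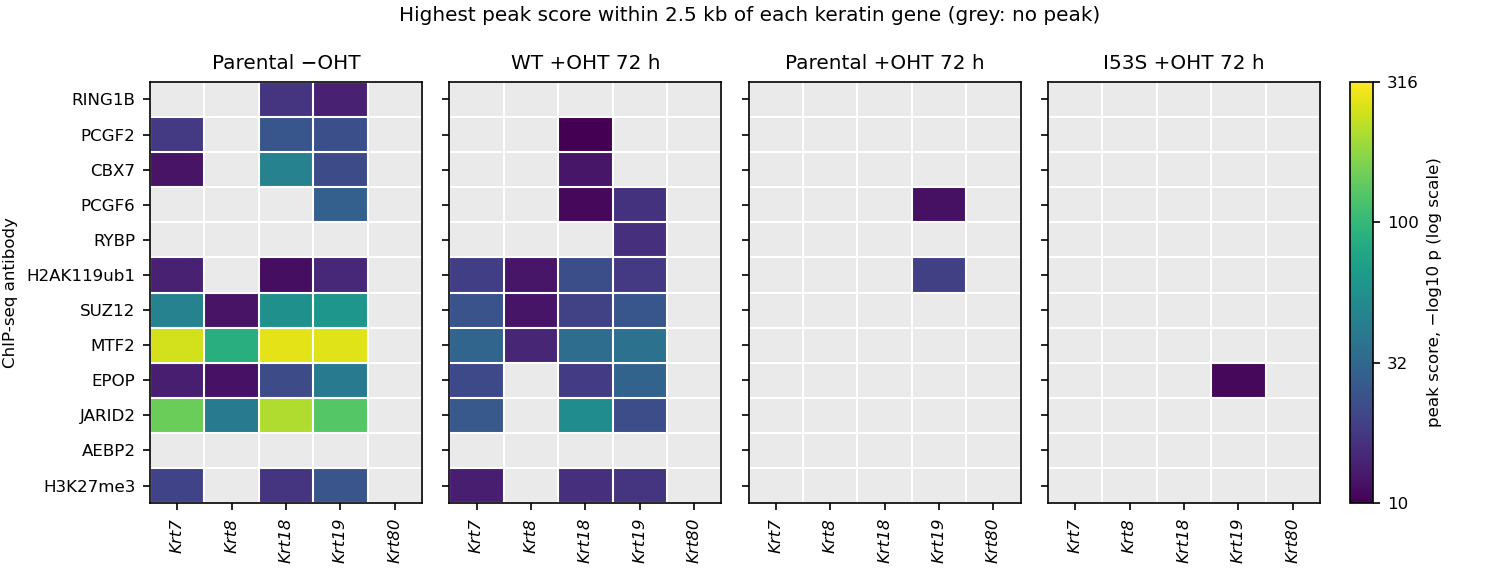
Highest peak score (-log10 p, colour) of each of 12 antibodies (rows) at each keratin gene (columns) in 4 conditions (panels), with the higher library where there are 2; grey marks no peak. Scores fill most of the Parental -OHT and RING1B WT +OHT panels apart from Krt80, and nearly all cells are grey in the Parental +OHT and RING1B I53S +OHT panels.

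MTF2, the PRC2 subunit that binds unmethylated CpG-rich DNA, gave the highest scores at these genes in Parental -OHT cells. They were 274.4 at Krt18, 266.4 at Krt19, 251.0 at Krt7 and 88.7 at Krt8. JARID2, an accessory subunit of the alternative form of PRC2, followed with 208.4, 127.9, 144.7 and 41.5. Krt8 had the lowest score of both and the fewest CpGs of the 3 promoters shown. The Krt7 promoter held more CpGs than that of Krt18, with lower scores of both. A link between CpG content and these scores was not tested.

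The core PRC2 subunit SUZ12 had scores of 61.0 at Krt19, 56.8 at Krt18, 46.2 at Krt7 and 12 at Krt8. H3K27me3, the product of PRC2, covered the starts of Krt7 (3582 bp, score 20.1), Krt18 (4777 bp, score 16.8) and Krt19 (3301 bp, score 24.8), and no H3K27me3 peak lay at Krt8. By the same rule in those libraries, 54.7% of protein-coding genes had an MTF2 peak, 34.8% a JARID2 peak, 31.3% a SUZ12 peak and 30.6% an H3K27me3 peak, against 31%, 19.9%, 17% and 17.9% of all 55413 annotated genes.

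PRC1 peaks were sparser. RING1B itself had peaks at Krt18 (score 17) and Krt19 (score 13.7) in Parental -OHT cells, where 19.5% of protein-coding genes had one. The Krt18 peak, 846 bp long, lay in intergenic sequence from 3.09 to 2.24 kb upstream of the start, on the window printed above, and the Krt19 peak lay from 0.27 to 1.00 kb downstream of the start, over an exon. H2AK119ub1 peaks were found at Krt7, Krt18 and Krt19, with scores up to 13.8, 11.4 and 14.6, where 26.3% of protein-coding genes had one. PCGF2, a subunit of canonical PRC1, and CBX7, its H3K27me3 reader, had peaks at Krt7, Krt18 and Krt19. In those libraries 18.7% of protein-coding genes had a PCGF2 peak and 18.9% a CBX7 peak.

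Upstream of Krt18 the peaks fell into a distal and a proximal part. In Parental -OHT cells MTF2 covered both in a single peak of 5422 bp, from 4.61 kb upstream to 0.81 kb downstream. SUZ12, EPOP and PCGF2 each had a distal peak centred 2.87, 2.40 and 2.64 kb upstream and another over the start. The RING1B peak was distal only. In RING1B WT +OHT cells MTF2, JARID2 (replicate 1), EPOP and SUZ12 also had a distal and a proximal peak, while CBX7, PCGF2 and PCGF6 had the distal one.

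At Krt8 the peaks lay within the gene and the region up to its start. The 4 Parental -OHT peaks were centred 0.68 to 1.21 kb downstream of the start, in an intron. MTF2 and JARID2 peaks also reached across the start, by 0.15 and 0.31 kb. In RING1B WT +OHT cells an H2AK119ub1 peak of 2241 bp (score 12.4) covered the Krt8 start, where Parental -OHT cells had none.

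**Figure D4:**
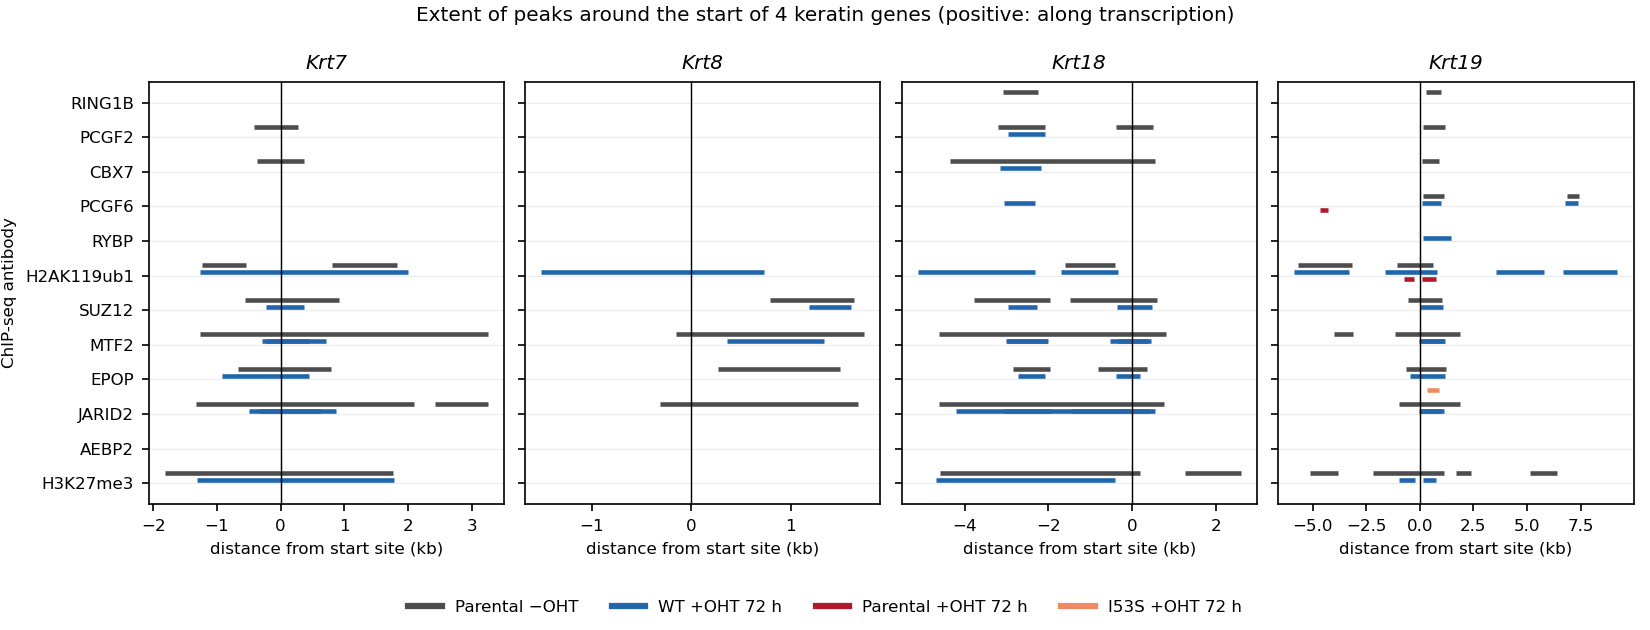
Extent of every peak at Krt7, Krt8, Krt18 and Krt19 by antibody (rows) against distance from the principal start in kb (horizontal axis, positive into the gene), with 4 conditions in colour. At Krt18 peaks lie both about the start and upstream of it, with the Parental -OHT RING1B peak from -3.09 to -2.24 kb.

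In RING1B WT +OHT cells the PRC2 peaks were present and no RING1B peak was at any of the 5 genes, in a library where 15% of protein-coding genes had one. MTF2 scored 26.2 and 30.9 at Krt7, 36.5 and 34.7 at Krt19 and at most 19.0 and 34.5 at Krt18 in its 2 libraries. At Krt8 an MTF2 peak (14.5) was called in 1 of the 2. Without OHT, the MTF2 library of this line scored 56.5 at Krt7, 77.9 at Krt19, 73.3 at Krt18 and 22.1 at Krt8. In RING1B WT +OHT cells H2AK119ub1 had peaks at Krt7 (3265 bp, score 18.9), Krt18, Krt19 and Krt8, where 31.4% of protein-coding genes had one.

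In Parental +OHT cells, 27.6% of protein-coding genes had an MTF2 peak and 23% a SUZ12 peak, and neither was at any of the 5 keratins. H2AK119ub1 peaks, at 22.4% of protein-coding genes, were called at Krt19 with scores of 19.3 and 10.9. The paper reports that this mark was lost from these cells with OHT. Its histone ChIP-seq signal was scaled to added Drosophila chromatin, and its methods give no such scaling for peak calls. Peak scores thus do not measure the amount of the mark, and the Krt19 peaks are not read as its persistence. Whether they hold the mark was not tested. In Parental +OHT cells chromosome 11, which carries Krt19, held 17.8% of the H2AK119ub1 peaks, 18.2% of the PCGF6 peaks, and 82.6% of the 690 RING1B peaks. In the RING1B I53S +OHT line it held 20.9% of EPOP peaks. In Parental -OHT cells its shares were 19.8% for H2AK119ub1, 14.8% for PCGF6, 12.5% for RING1B and 14.5% for EPOP. The part of this chromosome-wide share in the Krt19 peaks was not tested.

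The MTF2 and JARID2 libraries covered more conditions. Without OHT, 8 of 10 gene and library pairs had a peak in RING1B WT and 7 of 10 in RING1B I53S cells. In these lines 39.9% and 36.2% of protein-coding genes had an MTF2 peak and 23.7% and 21.7% a JARID2 peak. Some +OHT libraries are titled 48 h, although the treatment label gives 72 h for every sample. The paper describes MTF2 and JARID2 ChIP-seq at 48 h, so the titles were followed. In those titled 48 h, 7 of 10 had one in RING1B WT cells, 2 of 10 in Parental cells (MTF2 at Krt7, score 11.9, and at Krt19, score 16.1) and 0 of 10 in RING1B I53S cells. The shares of protein-coding genes there were 33.5%, 31.6% and 32.7% for MTF2 and 19.9%, 11.9% and 4.22% for JARID2, in the order RING1B WT, Parental, RING1B I53S. The count in Parental cells is near those shares, and 0 peaks at 5 genes is not read as a difference from them.

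In MTF2 KO lines the libraries were of SUZ12 and H3K27me3. SUZ12 was at Krt19 (score 15.9) and Krt18 (12.7) in Parental MTF2 KO -OHT cells. It was also at Krt19 (17.7) in RING1B WT MTF2 KO +OHT cells. In those libraries 12.2% and 13.6% of protein-coding genes had a SUZ12 peak, and the keratin peaks are not read as a difference from these shares. Krt80 had its only peak of any library in these lines, H3K27me3 inside the gene in RING1B I53S MTF2 KO +OHT cells, with the minimum score of 10.0. That library had a peak at 4.18% of protein-coding genes. AEBP2, another subunit of PRC2, had no peak at any keratin in any library, and its peaks lay at no more than 4.92% of protein-coding genes. RYBP, a subunit of variant PRC1, had a peak at Krt19 in RING1B WT +OHT cells only (16.1), where 5.37% of protein-coding genes had one.

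Other gene groups of epithelial cells were listed by function, and Jup, Cdh1, Epcam, Klf5 and Krt42 are named from them after their values were seen. Among 18 tested genes that anchor keratin filaments to desmosomes and hemidesmosomes, 6 were called higher with OHT in Parental, 7 in RING1B I53S, 1 in RING1B WT and 1 in Eed fl/fl cells (against 15.1%, 12.8%, 1.34% and 0.00795% of all genes), with median log2 fold changes of 0.73, 0.69, 0.40 and 0.38. Over all tested genes those medians were 0.03, 0.01, 0.02 and 0.08. Dsp, which encodes desmoplakin, the plaque protein that keratins attach to, rose by 2.96 ± 0.25 (log2) in Parental cells, and Dsc2, a desmosomal cadherin, by 2.74 ± 0.31.

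Dsc2 was also the gene of this group called in RING1B WT cells (1.80 ± 0.32). Jup, the plaque protein plakoglobin, was at 284 and 219 CPM without and with OHT in Parental cells and was not called. Perp, a desmosome protein, rose by 2.23 ± 0.29 in Parental and was the group's called gene in Eed fl/fl cells, from 19.0 to 134 CPM (2.82 ± 0.29, adjusted p = 0.0216, edgeR).

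Of 16 genes of tight and adherens junctions and epithelial splicing, 5 were called higher in Parental (15.1% of all genes) and 1 in RING1B I53S cells (12.8% of all genes), so that the latter count is under the share over all genes. Esrp1, an epithelial splicing regulator, rose by 2.27 ± 0.29 and the claudin gene Cldn3 by 2.55 ± 0.45 in Parental cells. Cdh1 (E-cadherin), at 412 and 526 CPM without and with OHT, and Epcam, at 308 and 358, were already high in ESCs and were not called. The list's medians were 0.50, 0.23, 0.09 and 0.23 in the order Parental, RING1B I53S, RING1B WT, Eed fl/fl.

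Of 15 tested transcription factors of epithelium and trophectoderm, 7 were called higher in Parental, 4 in RING1B I53S and 1 in RING1B WT cells. Over all tested genes the shares called higher were 15.1%, 12.8% and 1.34%. Gata3, a trophectoderm factor, rose by 6.70 ± 0.36 (log2) in Parental, 5.46 ± 0.33 in RING1B I53S and 2.13 ± 0.34 in RING1B WT cells. Gata2 rose by 2.97 ± 0.37 in Parental and 2.45 ± 0.35 in RING1B I53S cells. Klf5, a factor that ESCs also use, was lower by a log2 fold change of -1.13 ± 0.18 in Parental cells, under the fold threshold.

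Intermediate filament genes of other cell classes moved as well. Of 14 tested, 7 were called higher in Parental cells, where 15.1% of all genes were. Among them were Nes, the nestin gene of neural progenitors (2.21 ± 0.27), and Nefh, a neurofilament gene (2.18). Vim, the vimentin gene of mesenchymal cells, fell from 120 to 40.7 CPM (-1.57). The median of this list was 1.55 in Parental, 0.89 in RING1B I53S, 0.46 in RING1B WT and 0.05 in Eed fl/fl cells.

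Of 49 other keratin genes, 23 were tested in the 3 lines, most of them through +OHT groups alone, so their count is no support for a shared change. In Parental cells 16 were called higher, where 15.1% of all genes were. Among them were Krt79 (1.65 to 17.6 CPM in the means) and Krt20 (0.327 to 5.1 CPM). Krt42, which had the opposite direction, was at 92.3 and 42.4 CPM without and with OHT (-1.13 ± 0.20), under the fold threshold. In the Parental +OHT means, Krt79 and Krt20 thus stayed below Krt7, Krt8, Krt18 and Krt19 in CPM.

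**Figure D5:**
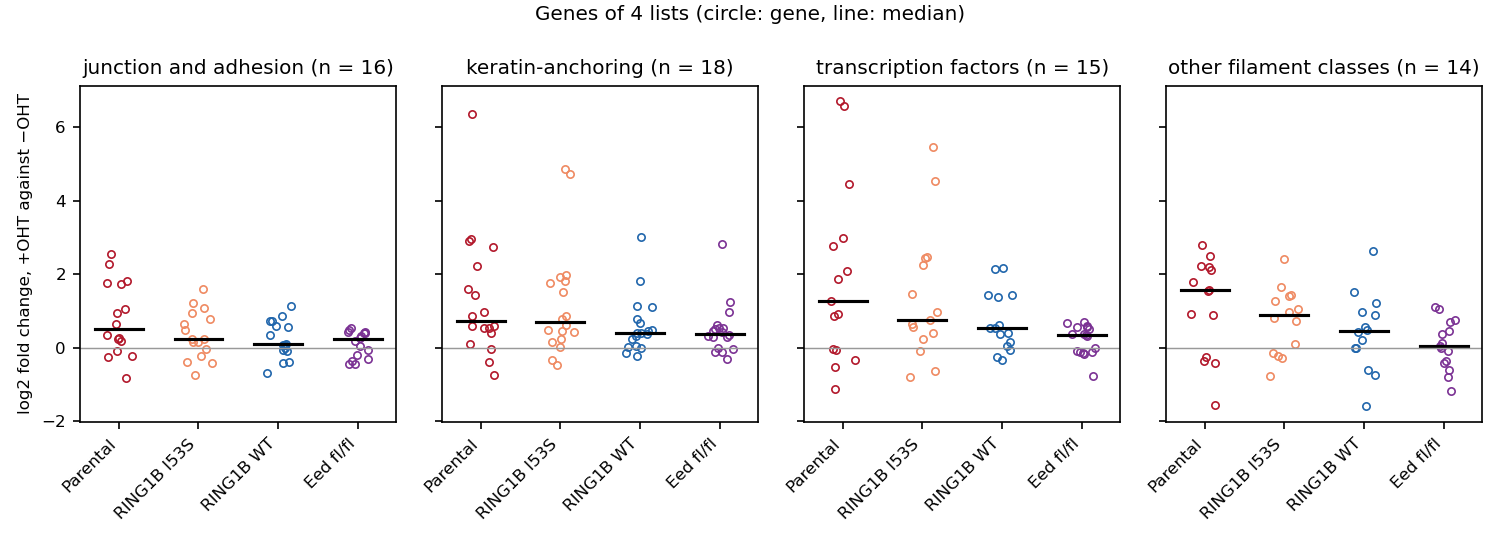
Change with OHT (log2 fold change, vertical axis) of the tested genes of 4 lists (panels) in the Parental, RING1B I53S, RING1B WT and Eed fl/fl lines. Circles are genes and bars medians; the median of the keratin-anchoring list is 0.73 in Parental and 0.40 in RING1B WT cells.

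Markers of other cell types moved with the same groups. The summed level of 8 trophoblast markers was 115 to 145 CPM in Parental -OHT and 396 to 442 in +OHT libraries. It was 303 to 324 in RING1B I53S +OHT and 117 to 165 in RING1B WT +OHT libraries. Of these markers, Gata3, Cdx2, Elf5 and Tfap2c are also on the list of transcription factors. Of 7 tested trophoblast markers 5 were called higher in Parental cells, where 15.1% of all genes were. Of 8 primitive endoderm markers 7 were called higher in Parental cells, against 15.1% of all genes. In the Parental -OHT libraries 4 and 3 of these 8 had no counts. Some may have passed the filter through +OHT groups alone, so this count is no support for a shared change. The list summed to 30.9 to 31.2 CPM without and 75.6 to 85.6 with OHT. Gata6, which defines the primitive endoderm lineage, was at 0 in both Parental -OHT libraries. Of 8 pluripotency markers 2 were called lower (Zfp42 and Sox2), against 1.83% of all genes. Those 8 summed to 4630 to 5540 CPM without and 2860 to 3040 with OHT. The ESC markers thus stayed the most abundant of the 3 lists. Their part in the keratin levels was not tested, and in bulk RNA more cells of a type and more RNA per cell cannot be told apart.

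Smaller marker lists gave lower sums. Mesoderm markers summed to 4.7 to 6.36 CPM in Parental -OHT and 38.2 to 43.8 in +OHT libraries. Those of stratified epithelium summed to 5.62 to 6.06 and 11.8 to 14.7 CPM, with Krt5, the basal keratin, at 0 in both Parental -OHT libraries. Of 6 fibroblast markers 2 were tested and called higher in Parental cells (Col1a1 and Col1a2), where 15.1% of all genes were. In each Parental -OHT library 4 of the 6 had no counts, so this count is a description only. The list summed to 2.47 to 3.5 and 23.9 to 25.9 CPM. Their part in the keratin levels was not tested either.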

How the data were processed

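RNA-seq (SMART-seq2) and ChIP-seq of mouse ESCs were analysed from the files the authors deposited. The deposited RNA values are raw counts per gene name. The authors aligned reads with STAR 2.7, removed duplicates and counted exons without strand by featureCounts (GENCODE M21). The deposited peak scores are -log10 p. The authors aligned with Bowtie 1.2.2 to mm10 and called peaks per library with MACS2 2.1.1 against input. Their comparison tables hold log2 fold changes and adjusted p-values, and these and the normalized tables were not used.

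Counts were fitted with edgeR 4.0.16 (quasi-likelihood, TMM, filterByExpr; R 4.3.3), the 12 libraries of the 3 lines together (18154 genes) and the 4 Eed fl/fl libraries apart (25170). Calls needed a log2 fold change of 1.5 or more in size and a Benjamini-Hochberg FDR under 0.05. Replicates of every group differed by more than counting error. The fit was tested on simulated data. Alternatives were DESeq2 1.42.0, RLE scaling, other filters, FDR alone, a replicate block and leaving out each library. The members and lists were chosen with earlier results of these data known. Genes named are the members, the targeted genes, their neighbours, the most alike genes and, from each list, called genes with the lowest adjusted p. Intervals and standard errors cover these libraries only. In the ChIP-seq files depth is unknown.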

Additional observations from a re-analysis of the deposited data

How the results depend on the processing

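Each comparison was repeated with DESeq2, RLE scaling, no filter, at least 10 counts in every library, FDR alone, a replicate block and each library left out. Of the counts under an alternative, 116 stayed within and 16 went past 1.5 times the main count, and no value of a called member reversed. Leaving out single libraries gave 3 to 4 members called in Parental (lowest without Parental -OHT replicate 2), 1 to 3 in RING1B I53S and 1 to 2 in RING1B WT cells. It gave 1 to 2 in RING1B WT against Parental with OHT, and 0 to 1 in RING1B I53S against RING1B WT with OHT, in the difference between RING1B WT and Parental, and in Eed fl/fl cells. FDR alone called 3 members in RING1B WT cells, 4 in RING1B WT against Parental with OHT, 3 in RING1B I53S against RING1B WT and 1 in the difference. Without a filter 2 members were called in RING1B WT cells. A score of at least 20 left 53 of the 94 gene and library pairs with a peak.

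The labels do not say what same-numbered samples share. Correlations of their deviations between groups ran from -0.00 to 0.30 in the 12 libraries and were 0.46 between the Eed fl/fl groups. With the replicate block 2 members were called in RING1B WT cells, and no other count changed. In Eed fl/fl cells, with 1 pairing of 2 numbers, the block moved the adjusted p of Krt19 from 0.48 to 1.07e-05 by edgeR and left no member past the fold threshold. Krt80, with 0 to 21 counts in the 3 lines, is limited by depth. The cause of these shifts was not tested.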
